A study of Homo sapiens with 2 samples.

Results

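The proteasome subunits were followed in PC3 cells after knockdown of SUB1, a transcriptional coactivator also known as PC4. The set holds every gene probe whose symbol on the array is PSMA, PSMB, PSMC, PSMD or PSME followed by a number, without PSMB8 and PSMB9. This gave 60 probes for 40 genes among 41000 gene probes on the array. Of these, 59 probes for 39 genes passed the filter on dim spots, among 25673 probes that passed it in all. The gene without a usable probe was PSMA8, the testis form of an alpha subunit, whose probe was not well above background in either channel on either array.

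The proteasome is the protease that degrades proteins tagged with ubiquitin. Its 20S core is a stack of alpha and beta rings: the alpha subunits (PSMA) form the gate, and the beta subunits (PSMB) form the inner chamber, where PSMB5, PSMB6 and PSMB7 cut after hydrophobic, acidic and basic residues. The 19S regulatory particle caps the core. Its base holds the ATPases (PSMC), which unfold substrates and thread them into the core, and its lid (PSMD) removes the ubiquitin chain. Other activators (PSME) can take the place of the 19S particle. In many cell types these genes are transcribed in a coordinated way, since the subunits are needed in fixed proportions.

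PC3 is an established prostate cancer cell line. The cells were transfected with SUB1 siRNA 1, SUB1 siRNA 2 or non-targeting (Non-T) siRNA, a second transfection was given later, and RNA was taken 72 h after the first. Each SUB1 siRNA has 1 dual-color array, with the SUB1 siRNA sample in Cy5 and the Non-T siRNA sample in Cy3, and both arrays lie on 1 slide. The labels name no separate cultures, do not say whether both arrays carried the same Non-T RNA, and describe no dye swap, so dye and knockdown cannot be told apart. Ratios below are log2 of SUB1 siRNA over Non-T siRNA after loess normalization. With 1 array per siRNA the ratios of single arrays have no replicate check. As a measure of technical error, 209 probes spotted 10 times on each array had a median SD among spots of 0.0781 (siRNA 1) and 0.0741 (siRNA 2) in log2 ratio. All member probes were spotted once, and none was flagged as an outlier or saturated.

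The targeted gene was checked first. The 4 SUB1 probes had log2 ratios of −3.30, −3.35, −1.81 and −3.75 with siRNA 1 and −3.26, −3.16, −1.57 and −3.50 with siRNA 2. This left 7.42% to 28.6% of the Non-T signal with siRNA 1 and 8.85% to 33.8% with siRNA 2. Of the 4 probes, 3 passed limma's test of the mean ratio over both arrays (adjusted p = 0.012), and these 3 probes (0.0117%) were the only calls among the 25673 probes tested. The epithelial markers KRT8, KRT18 and KRT19 were all well above background in the Non-T samples. Of the leukocyte and fibroblast markers, PTPRC and COL1A2 were not, while 1 of 2 CD3E probes and the COL1A1 probe were. TMPRSS2, which PC3 cells are known to express at a low level, was not above background either, but 1 of 3 KLK3 probes was.

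As a whole the proteasome probes moved little. Their median log2 ratio was −0.01 with siRNA 1 and −0.13 with siRNA 2, against 0.01 and 0.02 for all probes that passed the filter, but centring the arrays on their medians, without loess (median centring below), turned the proteasome medians to 0.24 and 0.15. With that centring the median of all probes also lay higher, at 0.11 and 0.10, so that relative to all probes the proteasome median lay 0.13 above it with siRNA 1 and 0.04 above it with siRNA 2. Values after median centring given below are likewise to be read against 0.11 and 0.10, and not against 0. In the loess-normalized data, 31 of 59 probes were below 0 with siRNA 1 and 41 of 59 with siRNA 2. Of all 25673 probes, 12204 and 12228 were. After median centring, 12 of 59 member probes were below 0 with siRNA 1 and 11 of 59 with siRNA 2, and the share of all probes below 0 was not counted there. With loess, ratios were below 0 on both arrays for 27 of 59 probes (45.8%), while 31.6% of all probes were. The ratios of the members spread less than those of all probes, with an SD across probes of 0.23 and 0.25 against 0.29 and 0.33. The member probes gave bright spots, with a median Cy3 intensity of 3162 and 2639 on the scanner against 243 and 210 for all probes that passed the filter. Whether spot brightness had a part in the shift under median centring was not tested.

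**Figure D1:**
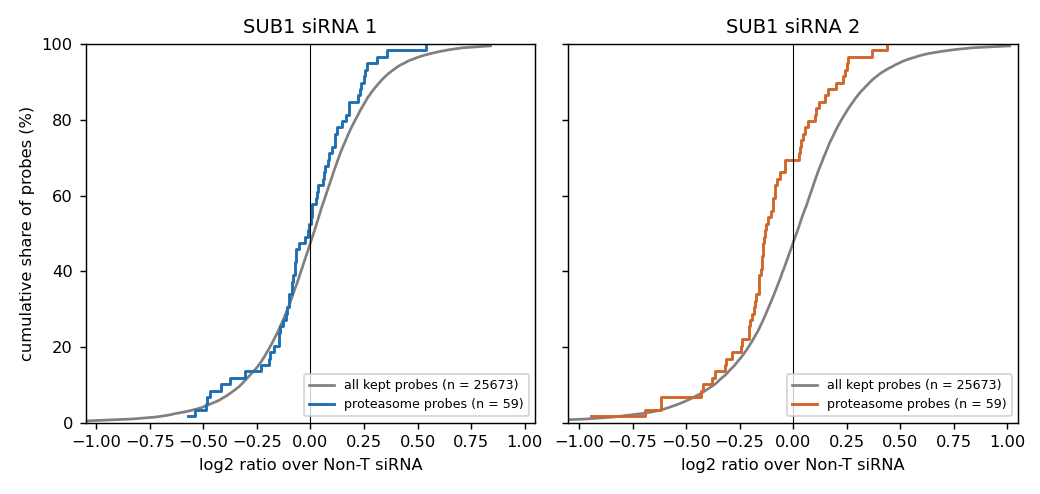
Cumulative share of probes (y axis, percent) by log2 ratio over Non-T siRNA (x axis) for the 59 proteasome probes (colored steps) and all 25673 probes that passed the filter (grey line), with SUB1 siRNA 1 on the left and SUB1 siRNA 2 on the right. The proteasome line crosses 0 near the line of all probes with siRNA 1 and to its left with siRNA 2, where 41 of 59 probes are below 0.

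No proteasome probe reached the absolute fold change of 2 that the study used for its arrays, with either siRNA in either direction. Of all probes, 0.557% were at least 2-fold lower and 0.195% at least 2-fold higher with siRNA 1, and 0.923% and 0.526% with siRNA 2. At 1.5-fold, no member was called with siRNA 1 (all probes: 2.92% lower, 2.21% higher). With siRNA 2, 4 members were at least 1.5-fold lower and 0 higher, against 3.94% and 3.19% of all probes. These 4 probes belong to PSMC3, PSMD2, PSMD11 and PSMD13, all subunits of the 19S particle. The count was 2 with the software's processed signals, 2 in the authors' table and 1 after median centring. At 1.2-fold, 8 members were lower and 4 higher with siRNA 1 (all probes: 13.8% and 14.5%), and 11 were lower and 2 higher with siRNA 2 (all probes: 16% and 16.5%). In percent of members these counts are 13.6% and 6.78% for siRNA 1 and 18.6% and 3.39% for siRNA 2, so the lower calls were near the background share and the higher calls below it. This split depends on the scaling, since after median centring 3 members were lower and 27 higher with siRNA 1, and 4 lower and 17 higher with siRNA 2. That centring moved the whole array. Of all probes at least 1.2-fold changed, 80.3% (siRNA 1) and 77.1% (siRNA 2) were higher under it, against 51.3% and 50.9% after loess. In the authors' own normalized table, the counts were 7 lower and 8 higher with siRNA 1, and 9 lower and 6 higher with siRNA 2.

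With both siRNAs, 6 members (10.2%) were at least 1.2-fold lower, against 6.89% of all probes, and 1 (1.69%) was at least 1.2-fold higher, against 6.6%. After median centring 2 members were lower and 13 higher, and 5 were lower and 4 higher in the authors' table. For these alternatives the share of all probes was not counted. The members lower on both arrays after loess were the probes of PSMA2, PSMC3, PSMD2, PSMD11 and PSMD13 and 1 of 3 probes of PSME3. The probe higher on both was that of PSME2. No member passed limma's test of the mean over both arrays with Benjamini-Hochberg adjustment, the smallest adjusted p being 0.105. At an unadjusted p under 0.05, 11 of 59 members passed, which is 18.6% against 21.2% of all probes. The 4 genes lowest with siRNA 2 kept ratios below 0 on both arrays under all 12 other ways of processing, and PSME2 and the brighter PSME1 probe kept ratios above 0. Changes to limma's test, the filter or the handling of outlier spots, which are among the 12, could not alter a member's ratio.

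**Figure D2:**
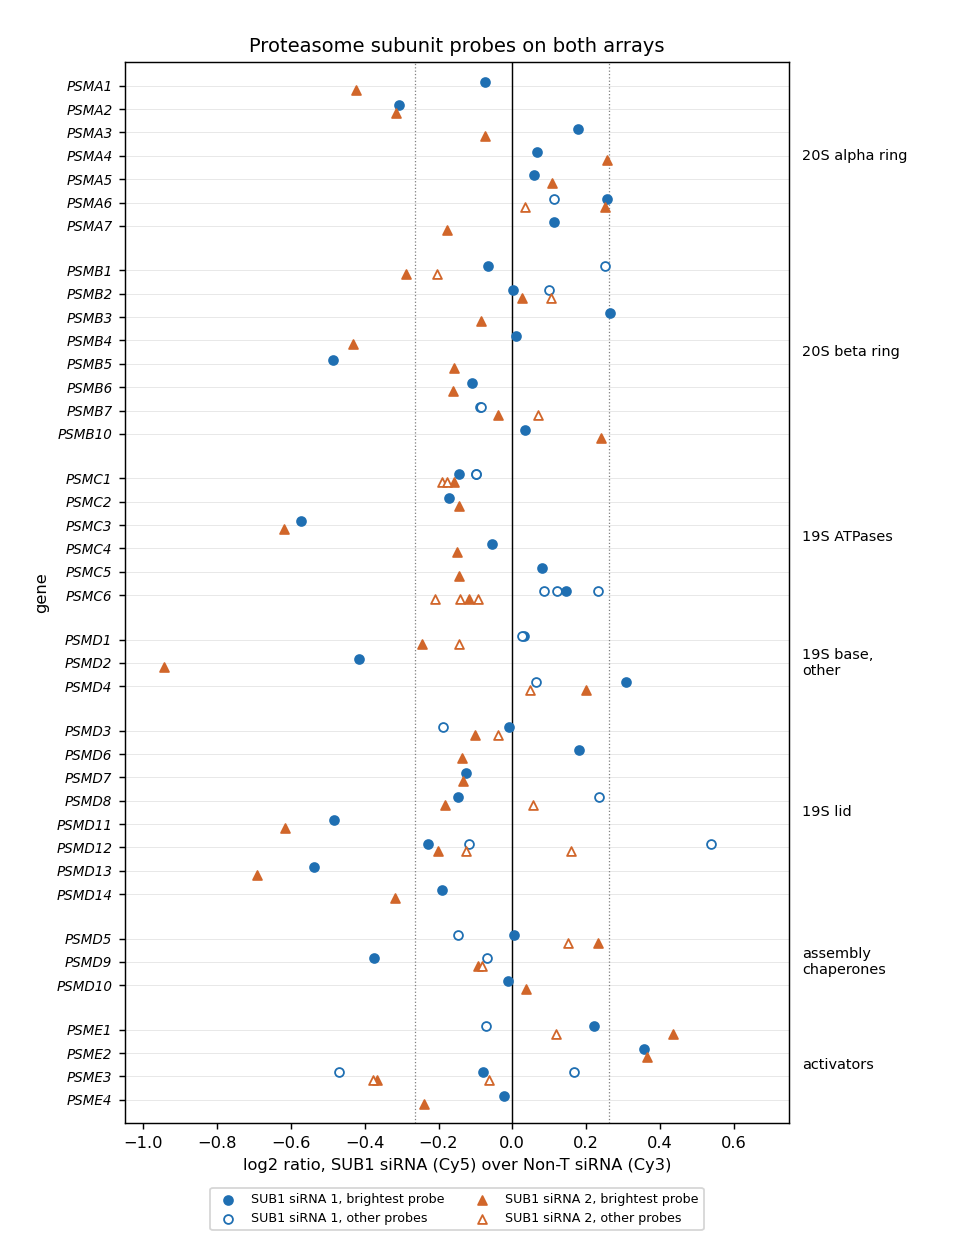
Log2 ratio over Non-T siRNA (x axis) of every proteasome probe that passed the filter, by gene (y axis) and by role in the complex (right), with SUB1 siRNA 1 as blue circles and SUB1 siRNA 2 as orange triangles; filled symbols are the brightest probe of a gene and dotted lines mark 1.2-fold. PSMA2, PSMC3, PSMD2, PSMD11 and PSMD13 stand left of the dotted line on both arrays and PSME2 to the right of it, and the open symbols of PSMB7 and PSMD9 are the 2 probes not well above background in Cy3.

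For the brightest probe of each of the 7 alpha ring genes, the median log2 ratio was 0.07 with siRNA 1 and −0.08 with siRNA 2 after loess, 0.17 and 0.05 in the authors' table, and 0.40 and 0.29 after median centring. PSMA2 was the lowest alpha gene with siRNA 1. Its normalized intensity was 4775 in the Non-T sample and 3860 in the siRNA 1 sample on array 1, and 4292 and 3451 on array 2. Its SUB1 siRNA value lay below the Non-T value on both arrays, with log2 ratios of −0.31 and −0.31 (unadjusted p = 0.0234, adjusted p = 0.18), but median centring left −0.03 and −0.02, which is within the technical SD.

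PSMA1 differed between the siRNAs (probe at chr11:14483145-14483204, build hg18, as for all probe positions here). Its intensity was 5962 with Non-T and 5667 with SUB1 siRNA on array 1, and 5072 and 3785 on array 2. The log2 ratios were −0.07 and −0.42 after loess, and 0.22 and −0.12 after median centring. PSMA4 and PSMA6 were at the upper end of the ring. For PSMA4 (chr15:76625033-76625092) the intensities were 6452 with Non-T and 6760 with siRNA 1, and 5438 with Non-T and 6495 with siRNA 2, which gives log2 ratios of 0.07 and 0.26 (0.37 and 0.58 after median centring). For PSMA6, whose 2 probes overlap, the brighter probe (chr14:34856272-34856325) read 30237 with Non-T and 36105 with siRNA 1, and 22982 with Non-T and 27366 with siRNA 2. Both ratios of this probe were above 0 (0.26 and 0.25, unadjusted p = 0.0455, adjusted p = 0.227), and the other PSMA6 probe read 0.11 and 0.03. Median centring gave 0.68 and 0.69 for the brighter probe. PSMA3 and PSMA7 had ratios above 0 with siRNA 1 (0.18 and 0.11) and below 0 with siRNA 2 (−0.08 and −0.18, turned to 0.29 and 0.18 by median centring). PSMA5 lay at 0.06 and 0.11.

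In the beta ring, the brightest probes of the 3 constitutive catalytic subunits were all below 0 on both arrays after loess. Differences between these subunits were not tested. PSMB5, the chymotrypsin-like subunit that bortezomib binds, read 11869 with Non-T and 8471 with siRNA 1, and 9903 with Non-T and 8868 with siRNA 2 (chr14:22565325-22565384). Its ratio was −0.49 with siRNA 1 and −0.16 with siRNA 2 (adjusted p = 0.231), and the second turned to 0.20 after median centring. PSMB6, the caspase-like subunit, read 9971 with Non-T and 9248 with siRNA 1, and 8703 and 7788 on array 2. These are log2 ratios of −0.11 and −0.16, which became 0.22 and 0.19 after median centring. PSMB7, the trypsin-like subunit, read 15297 and 14405 on array 1 and 14319 and 13934 on array 2, with log2 ratios of −0.09 and −0.04 that median centring turned to 0.28 and 0.35. Differences of this size are close to the technical SD among spots. A second probe named PSMB7 (chr9:126160513-126160572) lies on the plus strand while the first lies on the minus strand. It was not well above background in Cy3 on either array, and no fold is given for it.

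PSMB4, a structural beta subunit, gave one of the larger differences between the siRNAs. It read 21186 with Non-T and 21316 with siRNA 1, and 16907 with Non-T and 12536 with siRNA 2 (chr1:149640954-149641013), so its log2 ratio was 0.01 with siRNA 1 and −0.43 with siRNA 2 after loess. After median centring it was 0.40 and −0.04. PSMB10, the interferon-inducible subunit that replaces PSMB7 in the immunoproteasome, read 2185 with Non-T and 2237 with siRNA 1, and 1869 with Non-T and 2208 with siRNA 2 (chr16:66526048-66526232). Its log2 ratios were 0.03 and 0.24, and the first is smaller than the technical SD, while median centring gave 0.28 and 0.50. Over the brightest probes of the 8 beta genes the medians were −0.03 (siRNA 1) and −0.12 (siRNA 2), which turned to 0.28 and 0.20 after median centring. PSMB3 was at 0.26 with siRNA 1 and −0.08 with siRNA 2. Both PSMB2 probes lay between 0.00 and 0.10 on both arrays. The 2 PSMB1 probes had different signs with siRNA 1 (−0.07 and 0.25) but were both below 0 with siRNA 2 (−0.29 and −0.20), where median centring put them at 0.14 and 0.12.

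Counting the brightest probe of each gene, the 19S ATPases were below 0 for 4 of 6 genes with siRNA 1 and 6 of 6 with siRNA 2. Of all probes, 12204 and 12228 of 25673 were. After median centring only 1 of the 6 genes was below 0 on each array. The median of the 6 genes then lay 0.078 (siRNA 1) and 0.0204 (siRNA 2) above that of all probes. The gene below 0 was PSMC3 (RPT5), 1 of the 6 ATPases of the ring. The PSMC3 probe lies at chr11:47401010-47401069. It read 1914 with Non-T and 1287 with siRNA 1, and 1677 with Non-T and 1093 with siRNA 2. The knockdown value lay well below the control on both arrays, by 1.49-fold and 1.53-fold. The log2 ratios were −0.57 and −0.62, with a mean of −0.60 ± 0.09 (n = 2) and an adjusted p of 0.105 by limma. Errors of means here and below are limma's moderated SE, which borrows from the spread of all probes. Median centring left them at −0.34 and −0.38. The other ATPases sat near 0. PSMC1 read −0.14, −0.10 and −0.10 with siRNA 1 at its 3 probes and −0.16, −0.19 and −0.18 with siRNA 2, and RefSeq lists 13 pseudogenes of it. PSMC2 was at −0.17 and −0.14, PSMC4 at −0.05 and −0.15, and PSMC5 at 0.08 and −0.15. The 4 probes of PSMC6 lay between 0.09 and 0.23 with siRNA 1 and between −0.21 and −0.09 with siRNA 2. All these siRNA 2 values turned to above 0 after median centring.

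Of the other base subunits, PSMD2 gave the largest ratio of the whole set. PSMD2 (RPN1) is a scaffold to which ubiquitin receptors and shuttle factors dock. Its probe (chr3:185506264-185506323) read 3233 with Non-T and 2423 with siRNA 1, and 2681 with Non-T and 1393 with siRNA 2. Both knockdown samples lay below their control, and siRNA 2 lay further below than siRNA 1. The log2 ratios were −0.42 (1.33-fold lower) and −0.94 (1.92-fold lower), with a mean of −0.68 ± 0.15 (moderated SE, n = 2, adjusted p = 0.132 by limma). After median centring they were −0.16 and −0.69. PSMD4 (RPN10), a ubiquitin receptor, was on the other side of 0. Its brighter probe (chr1:149506492-149506551) read 9865 with Non-T and 12224 with siRNA 1, and 8809 with Non-T and 10111 with siRNA 2. This gives 0.31 and 0.20, or 0.65 and 0.56 after median centring, while the other PSMD4 probe gave 0.06 and 0.05. PSMD1 (RPN2), the companion scaffold of PSMD2, read 0.03 and 0.03 at its 2 probes with siRNA 1 and −0.25 and −0.14 with siRNA 2, the latter turning to 0.09 and 0.05 after median centring.

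**Figure D3:**
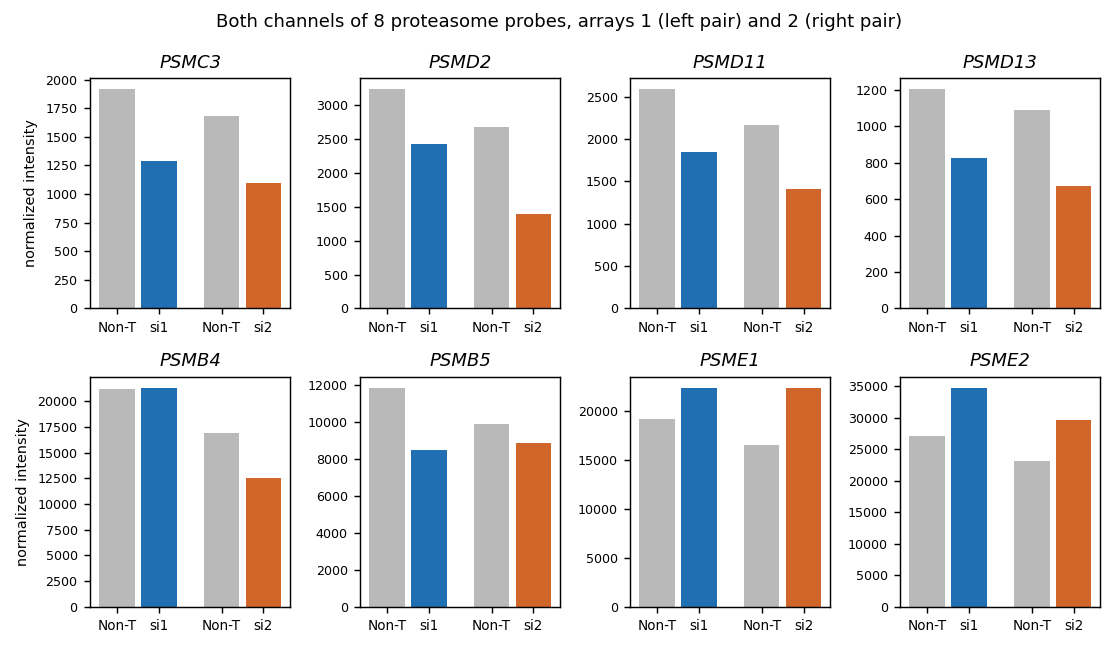
Normalized intensity (y axis, from 0, arbitrary units, 1 spot per bar) of the brightest probe of 8 proteasome genes in the Non-T sample (grey) and the SUB1 siRNA sample (colored) of array 1 (left pair) and array 2 (right pair); each panel has its own scale. After loess, PSMC3, PSMD2, PSMD11, PSMD13 and PSMB5 are below their control on both arrays, PSMB4 on array 2, and PSME1 and PSME2 are above it on both.

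Over the 8 lid genes the median was −0.17 (siRNA 1) and −0.19 (siRNA 2). Ratios were below 0 for 7 of 8 and 8 of 8 of them, against 12204 and 12228 of 25673 probes in all. Median centring turned the lid medians to 0.14 and 0.10 and left 2 of 8 genes below 0 on each array, PSMD11 and PSMD13. Relative to the median of all probes under that centring, the lid medians lay at 0.0289 (siRNA 1) and −0.004 (siRNA 2). PSMD11 (RPN6), a lid subunit that bridges the lid to the core, read 2585 with Non-T and 1848 with siRNA 1, and 2160 with Non-T and 1411 with siRNA 2 (chr17:27831300-27831650). It was 1.40-fold and 1.53-fold lower, with log2 ratios of −0.48 and −0.62, a mean of −0.55 ± 0.10 (moderated SE, n = 2) and an adjusted p of 0.112 by limma. PSMD13 (RPN9) read 1203 with Non-T and 828.1 with siRNA 1, and 1087 with Non-T and 672.9 with siRNA 2 (chr11:240851-241590). It was 1.45-fold and 1.62-fold lower, with log2 ratios of −0.54 and −0.69, a mean of −0.61 ± 0.10 (moderated SE, n = 2) and an adjusted p of 0.105. After median centring the ratios were −0.24 and −0.36 for PSMD11, the first short of 1.2-fold, and −0.32 and −0.47 for PSMD13. For both genes the loess-normalized knockdown value lay below the Non-T value of the same array, on both arrays.

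PSMD14 (RPN11), the enzyme that cuts the ubiquitin chain off the substrate, read 8670 with Non-T and 7594 with siRNA 1, and 7667 with Non-T and 6151 with siRNA 2. Its log2 ratios of −0.19 and −0.32 turned to 0.13 and 0.02 after median centring. PSMD7, its partner in the lid, was at −0.13 and −0.13. PSMD3 read −0.01 and −0.10 at its brighter probe and −0.19 and −0.04 at the other. PSMD6 was at 0.18 with siRNA 1 and −0.14 with siRNA 2. PSMD8 was at −0.15 and −0.18 at the brighter probe and at 0.24 and 0.06 at the other. After median centring, each siRNA 2 value of PSMD3, PSMD6, PSMD7 and PSMD8 lay above 0.

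PSMD12 (RPN5) was the gene whose probes differed most. The 2 probes on its RefSeq transcript, which overlap, read −0.23 and −0.12 with siRNA 1 and −0.20 and −0.13 with siRNA 2, and all 4 values were above 0 after median centring. The third probe, designed on an Ensembl transcript, lies 2727 bases from the nearer of these (chr17:62764781-62764840). It read 523.5 with Non-T and 761.2 with siRNA 1, and 477.0 with Non-T and 533.1 with siRNA 2, which are ratios of 0.54 and 0.16. This was the highest ratio of any member with siRNA 1, while the other 2 probes of the gene lay below 0. Over the 15 genes with several probes, the median distance between the highest and the lowest probe was 0.18 with siRNA 1 and 0.11 with siRNA 2. Probes of 1 gene had different signs in 6 of these genes with siRNA 1 and in 3 with siRNA 2. Among the latter 3 is PSMB7, whose second probe was not well above background in Cy3. PSMD12 and PSME3 differed by over 0.5 on an array.

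The base assembly chaperones, which help build the 19S particle and leave it afterwards, showed no shared direction. PSMD9 read 4095 with Non-T and 3159 with siRNA 1, and 3440 with Non-T and 3225 with siRNA 2 (chr12:120838216-120838614). Its ratio was −0.37 with siRNA 1 and −0.09 with siRNA 2, or −0.11 and 0.19 after median centring. Its other probe was not well above background in Cy3 on either array. PSMD5 read 327.2 with Non-T and 328.4 with siRNA 1, and 279.5 with Non-T and 328.4 with siRNA 2 (chr9:122618821-122618880), which are log2 ratios of 0.01 and 0.23. Its other probe read −0.15 and 0.15. PSMD10, known as gankyrin, was at −0.01 and 0.04.

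Among the activators, PSME1 and PSME2 had the ratios furthest above 0. Their proteins form the interferon-inducible 11S cap (PA28), and the genes lie near each other on chromosome 14. PSME2 (chr14:23682417-23682476) read 27135 with Non-T and 34732 with siRNA 1, and 23040 with Non-T and 29685 with siRNA 2. The SUB1 siRNA sample was above its control on both arrays, by 1.28-fold and 1.29-fold. The log2 ratios were 0.36 and 0.37, with a mean of 0.36 ± 0.09 (moderated SE, n = 2) and an adjusted p of 0.15 by limma. In the software's own processed signals they were 0.19 and 0.20, and after median centring 0.77 and 0.81. RefSeq lists 6 pseudogenes of PSME2, and whether the probe also takes up their transcripts was not tested.

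PSME1 was read by 2 probes. The brighter one (chr14:23677578-23677812) read 19124 with Non-T and 22293 with siRNA 1, and 16512 with Non-T and 22352 with siRNA 2, for log2 ratios of 0.22 and 0.44 (adjusted p = 0.194), or 0.61 and 0.85 after median centring. The dimmer one (chr14:23676218-23676392) read 677.9 and 644.7 on array 1 and 566.5 and 614.9 on array 2, for log2 ratios of −0.07 and 0.12. The probes thus differed in sign with siRNA 1 and shared it with siRNA 2. PSME3, which forms the nuclear PA28 gamma cap and is not interferon-inducible, was read by 3 probes. They gave −0.08, 0.17 and −0.47 with siRNA 1 and −0.37, −0.06 and −0.38 with siRNA 2. The last of these (chr17:38249126-38249185) read 299.0 with Non-T and 215.9 with siRNA 1, and 280.1 with Non-T and 215.7 with siRNA 2, below its control on both arrays (adjusted p = 0.132). PSME4 (PA200) was at −0.02 and −0.24.

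PSMB10, PSME1 and PSME2 are the interferon-inducible members of the set. The brightest probes of all 3 were above 0 on both arrays, with medians of 0.22 (siRNA 1) and 0.37 (siRNA 2). This sign held in the authors' table and after median centring. That centring also moved the median of all member probes up, to 0.24 (siRNA 1) and 0.15 (siRNA 2). The brightest probes of PSMA4, PSMA5, PSMA6, PSMB2, PSMD4 and PSMD5 were above 0 on both arrays too. Part of the element that interferon-regulated factors bind, GAAANNGAA, was looked for on both strands of RefSeq promoter windows of GRCh38.p14 (250 bases before to 50 after a start). The search was added after these ratios had been seen. It was found for 6 of 35 member genes with a window, in 14.6% of 41 windows, against 8.11% of all 35116 windows. The 6 genes were PSMA4, PSMB4, PSMB10, PSMC2, PSME1 and PSME2. After loess, their brightest probes had medians of 0.05 (siRNA 1) and 0.25 (siRNA 2), against −0.06 and −0.15 for the 28 other member genes with a window and a usable probe. As PSMB10, PSME1 and PSME2 are 3 of the 6, these medians partly restate ratios seen before the search and are no separate check. PSMB4 and PSMC2 hold the letters but had ratios of −0.43 and −0.14 with siRNA 2 (−0.04 and 0.15 after median centring). The promoters of the 3 interferon-inducible genes are shown with that of PSMC3, a gene with a low ratio and no match. All are 120 bases in the gene's direction, with capitals marking GAAANNGAA or its reverse complement.
PSME1 (chr14:24136098-24136217, plus strand): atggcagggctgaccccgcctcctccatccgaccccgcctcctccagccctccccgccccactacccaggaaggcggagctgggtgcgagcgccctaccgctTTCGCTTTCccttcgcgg
PSME2 (chr14:24146611-24146730, minus strand): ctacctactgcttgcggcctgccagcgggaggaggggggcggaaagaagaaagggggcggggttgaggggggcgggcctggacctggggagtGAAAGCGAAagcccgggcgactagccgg
PSMB10 (chr16:67936851-67936970, minus strand): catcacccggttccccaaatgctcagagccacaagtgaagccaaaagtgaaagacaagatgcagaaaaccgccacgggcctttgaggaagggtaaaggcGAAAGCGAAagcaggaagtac
PSMC3 (chr11:47426440-47426559, minus strand): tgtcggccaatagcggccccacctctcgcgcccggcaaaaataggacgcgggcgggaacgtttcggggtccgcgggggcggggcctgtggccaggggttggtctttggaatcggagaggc
PSME2 and PSMB10 hold the same letters, GAAAGCGAA, starting 28 and 21 bases before the start, and PSME1 holds them on the other strand (TTCGCTTTC), ending 14 bases after it. A match of letters is a description of the window and not a site.

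Other letters were searched in the same windows. The core of the antioxidant response element (TGACNNNGC), which NFE2L1 and NFE2L2 bind when they raise proteasome genes, was in 29.3% of the 41 member windows and 13.3% of all windows. The 12 genes with it had a median ratio of 0.02 with siRNA 1 and −0.10 with siRNA 2, and the 22 without it −0.10 and −0.16. CCAAT was in 41.5% of member windows and 34.6% of all windows, and the 17 genes with it had medians of −0.01 and −0.14 against −0.02 and −0.16 for the 17 without it. PSMA7, PSMB1, PSMB6, PSMB7 and PSMD4 had no window in the table.

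The siRNAs were next compared member by member, by subtracting the siRNA 1 ratio from the siRNA 2 ratio, which has no test with 1 array each. The median difference over the 59 probes was −0.08, and 40 of 59 were lower with siRNA 2, while the median over all probes was 0.00. Under the other ways of processing the median difference stayed below 0, from −0.10 to −0.05. In all 13 ways of processing, 34 probes were lower with siRNA 2 and 12 were higher. These 13 include changes to limma's test, the filter and outlier spots, which leave a member's ratio as it is. By channel, the arrays differed more in Cy5, which holds the SUB1 siRNA samples, than in Cy3. Between the arrays, the members' normalized log2 intensity differed by a median of 0.00 in Cy3, with an SD across probes of 0.09, and by −0.07 in Cy5, with an SD of 0.20. PSMD2 differed by −0.04 in Cy3 and −0.57 in Cy5, PSMB4 by −0.09 and −0.53, and PSMA1 by 0.00 and −0.35. In the other direction, PSMB5 differed by −0.04 in Cy3 and 0.29 in Cy5. The same spread was larger for all probes, with an SD of 0.12 in Cy3 and 0.30 in Cy5.

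By particle, the 15 genes of the 20S core had medians of 0.01 (siRNA 1) and −0.08 (siRNA 2), and the 17 genes of the 19S particle −0.14 and −0.16, while after median centring the core was at 0.34 and 0.20 and the particle at 0.18 and 0.10. Relative to the median of all probes under that centring, the core lay at 0.2351 and 0.0973 and the 19S particle at 0.0684 and −0.0008. With siRNA 2, 10 of 15 core genes and 16 of 17 genes of the particle were below 0, PSMD4 being the exception, but after median centring 3 of 15 and 4 of 17 were. Of all probes, 12228 of 25673 were below 0 with siRNA 2 after loess.

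**Figure D4:**
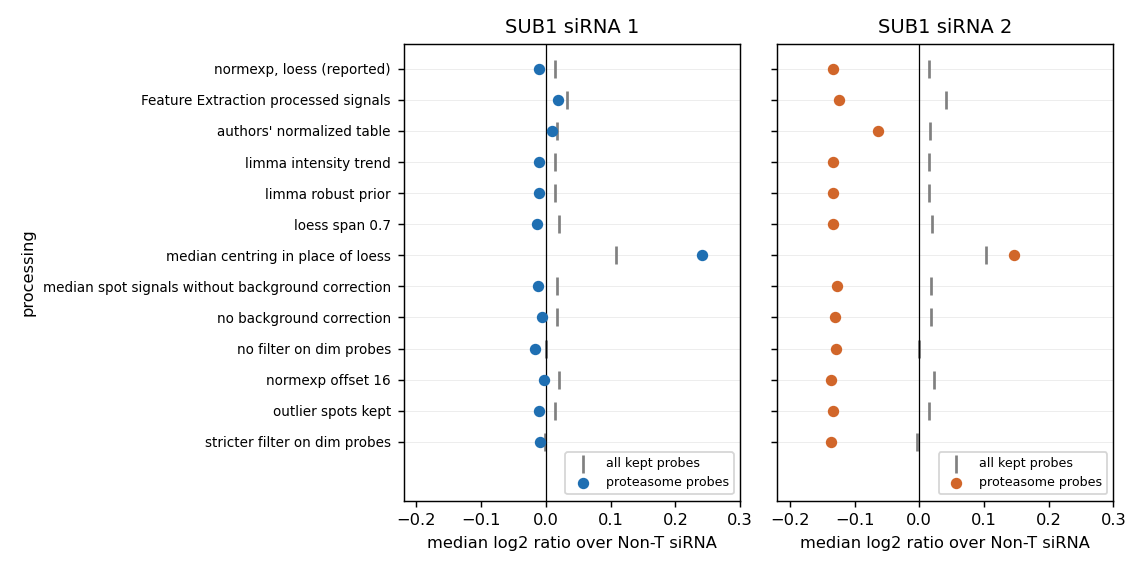
Median log2 ratio over Non-T siRNA (x axis) of the proteasome probes (colored points) and of all probes tested (grey ticks) under the reported processing (top) and 12 others (y axis), with SUB1 siRNA 1 on the left and SUB1 siRNA 2 on the right. Median centring in place of loess is the only one that moves the siRNA 2 median above 0, to 0.15, and it moves the siRNA 1 median to 0.24.

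Other genes of the pathway were taken from a list of 32 that work beside the proteasome, of which 30 had a probe that passed the filter (62 probes). Their median ratio was −0.04 with each siRNA. At 1.2-fold, 7 probes were lower and 4 higher with siRNA 1, and 16 lower and 7 higher with siRNA 2. These are 11.3%, 6.45%, 25.8% and 11.3% of the list, beside 13.8%, 14.5%, 16% and 16.5% of all probes. None passed limma's adjusted test, and 11 of 62 (17.7%) had an unadjusted p under 0.05, beside 21.2% of all probes. All values of this list are given after loess only. The genes named here were picked after their values were seen. POMP, which matures the 20S core, was at −0.29 and −0.06, and PSMG1, a chaperone of the alpha ring, at −0.26 and −0.59. UCHL5 and ADRM1, a deubiquitinase and the ubiquitin receptor that recruits it to the base, have 2 probes each. With siRNA 1 these read −0.27 and −0.19 (UCHL5) and −0.09 and −0.08 (ADRM1). With siRNA 2 they read −0.56 and −0.46 (UCHL5) and −0.45 and −0.36 (ADRM1). NPLOC4, a cofactor of the segregase VCP, was at −0.77 and −0.64. PSMF1, an inhibitor of the core, read 0.29 and 0.92 at its brighter probe and −0.05 and 0.15 at the other. NFE2L1, an activator of proteasome gene transcription, read between −0.09 and 0.36 with siRNA 1 and between 0.21 and 0.34 with siRNA 2 at its 4 probes.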

How the data were processed

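PC3 cells treated with SUB1 siRNA 1 or siRNA 2 (Cy5) and with Non-T siRNA (Cy3) were measured on 2 arrays of 1 slide. The authors quantified spots with Agilent Feature Extraction 9.5.1.1 and deposited each spot's intensity and local background, its processed intensity, its log10 ratio and a p-value from the software's error model. The log10 ratio served only for the sign behind that p-value. The authors also deposited log2 ratios per probe, loess-normalized with the R package agilp, which served as an alternative. Their direction was settled against the scanner files, with correlations across probes of 0.958 and 0.970. Probe positions are those of the array design (hg18, NCBI36).

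Here, mean spot intensities were background-corrected by normexp (offset 50), control spots were dropped, and loess with a span of 0.3 was run on each array's log2 ratios (limma 3.58.1, R 4.3.3). Outlier spots were left out (112 and 100), and spots of a probe averaged. A probe passed the filter if, on both arrays, 1 channel or both had at least 0.5 of its spots flagged as well above background. Intensities in the text are those after normalization within each array unless the scanner is named. They are not scaled between arrays, except for the differences by channel, which used quantile scaling of the mean log2 intensity. The mean ratio over both arrays was tested against 0 with limma (lmFit, eBayes, Benjamini-Hochberg over the 25673 probes), which leaves out the spread of the control. The SE of a mean is limma's moderated SE. The scripts were tested on simulated data. The number of arrays limits the precision, and p-values measure only the spread between these samples.

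The members and lists were chosen with earlier results of these data known. Full values are given for members at least 1.5-fold changed on an array, the 5 highest and 5 lowest genes by mean ratio, the 3 most positive and 3 most negative differences between the siRNAs (siRNA 2 minus siRNA 1), the catalytic and interferon-inducible members, PSME3, and genes whose probes differ by over 0.5, 19 genes in all. PSMA2, PSMD14 and other members are added for their role. Of the 60 probes, 56 had an accession with the same symbol in RefSeq (GRCh38.p14), and 4 accessions were not in that table. RefSeq lists 51 pseudogenes of 20 member genes, whose transcripts a probe may share. Alternatives were other background corrections, normalizations, filters, priors and probe summaries, and the authors' table. Some marker and pathway genes of the lists are not reported here by name.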

Additional observations from a re-analysis of the deposited data

How the results depend on the processing

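Loess was the choice the group values rested on. With each array centred on its median instead, the members' median log2 ratio was 0.2408 with siRNA 1 and 0.1468 with siRNA 2, and the median of the mean over both siRNAs 0.2065. The members at least 1.2-fold changed then numbered 30, 21 and 15 with siRNA 1, siRNA 2 and both. Calls by the software's p under 0.01 in place of a fold gave 1, 4 and 0 members, against 11.6% (siRNA 1) and 16.5% (siRNA 2) of all probes. Of all probes at least 1.2-fold changed, 51.3% (siRNA 1) and 50.9% (siRNA 2) were higher after loess and 80.3% and 77.1% after median centring. Leaving out 1 array at a time gave a median of −0.1332 to −0.0113, with no test. Of 116 comparisons of group values with an alternative, 107 moved by less than the technical SD or 1.5 times for counts. Of 494 such comparisons for the 19 named genes, 420 moved by less than the technical SD, and no ratio of these genes past 1.2-fold changed sign. Both totals include other limma priors, filters and outlier handling, which leave a member's ratio as it is. Outside the 19 genes, median centring turned siRNA 2 ratios past 1.2-fold above 0. PSMD14 went from −0.32 to 0.02 and the brighter PSMB1 probe from −0.29 to 0.14. Without a filter on dim probes, 452 probes passed the adjusted test and no member did (smallest adjusted p = 0.0517). Slide as a block could not be fitted with 1 slide and was not run. No paired analysis was possible because each siRNA has 1 array. Every value rests on 1 spot per array, and dim members such as PSME3 and PSMD5 lie closer to background.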
